A study of Mus musculus with 27 samples.

Results

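The genes of cholesterol synthesis, uptake and sterol sensing described here are 29 mouse genes, taken by symbol from a list that covers the pathway from acetyl-CoA to cholesterol, the proteins that sense and move sterols, and both an exporter and a regulator of uptake that answer to sterol excess. All 29 were among the 20446 genes of the count table, and all 29 were among the 12687 genes with enough reads to be tested. They fall into 8 enzymes of the mevalonate and isoprenoid steps, 12 enzymes of the steps from squalene on, 3 genes of sterol sensing, 4 of sterol transport inside the cell, and 2 targets of the liver X receptors (LXR).

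The cells were C2C12, a mouse myoblast line that fuses into multinucleated myotubes when serum is lowered. Per the labels' protocols they were kept in 10% FBS, seeded at 50000 cells per well in 6-well plates, switched at about 90% confluence to 2% horse serum for differentiation, and later exposed for 2 h to 50% horse serum, a serum shock of the kind used to bring the circadian clocks of cultured cells into step. Total RNA depleted of ribosomal RNA was collected every 6 h between 12 h and 60 h after the shock, which gave 9 groups of 3 libraries, each with 15.2 to 26.6 M counted reads (median 20.9 M). All groups carried the same treatment, no culture without the shock was included, and no genotype or drug differed between them. Time after the shock and time in differentiation medium therefore cannot be told apart. Nothing says that the 3 libraries of a time point came from separate cultures, so the p-values measure the spread between libraries, which may be technical. Levels are CPM, read counts scaled to the size of the library. In these bulk libraries fewer cells of a type and less RNA per cell cannot be told apart.

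Cells make cholesterol from acetyl-CoA by way of mevalonate, isoprenoid units, squalene and lanosterol. When membranes of the endoplasmic reticulum are low in sterol, the escort protein SCAP carries the transcription factor SREBP2, the product of Srebf2, to the Golgi, where it is cut and freed to switch on the genes of sterol synthesis and uptake, and INSIG1 holds the complex back when sterol is plentiful. Oxysterols that build up with cholesterol activate the LXRs, which switch on export by ABCA1 and the ubiquitin ligase MYLIP, which limits the uptake of lipoproteins.

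The upstream sequences of 5 of these genes are shown because their genes had the largest rise of their group from 12 h to 36 h (Idi1, Lss, Insig1 and Abca1 for the mevalonate enzymes, the sterol enzymes, sensing and the LXR targets) or because the window held a sterol response element (Hmgcs1). Each run is the 250 bases before the RefSeq gene start on GRCm38.p6, 5′ to 3′ on the gene's strand. Capitals mark the CCAAT box, the site of NF-Y, on either strand (CCAAT or ATTGG), and the sterol response element TCACNCCAC.
Hmgcs1: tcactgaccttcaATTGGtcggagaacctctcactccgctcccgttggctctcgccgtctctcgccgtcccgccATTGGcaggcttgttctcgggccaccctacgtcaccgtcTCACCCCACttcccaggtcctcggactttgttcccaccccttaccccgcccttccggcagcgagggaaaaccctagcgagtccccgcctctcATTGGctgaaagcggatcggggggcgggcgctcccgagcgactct
Idi1: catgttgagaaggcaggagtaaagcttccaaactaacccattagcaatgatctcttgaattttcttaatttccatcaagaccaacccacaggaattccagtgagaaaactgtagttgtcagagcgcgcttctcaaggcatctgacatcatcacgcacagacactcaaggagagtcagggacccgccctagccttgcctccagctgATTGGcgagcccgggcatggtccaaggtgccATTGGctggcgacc
Lss: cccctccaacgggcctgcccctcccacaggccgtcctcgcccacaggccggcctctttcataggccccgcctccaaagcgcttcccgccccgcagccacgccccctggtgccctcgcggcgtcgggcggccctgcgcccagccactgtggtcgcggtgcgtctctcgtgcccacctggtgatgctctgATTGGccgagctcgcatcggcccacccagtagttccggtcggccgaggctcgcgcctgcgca
Insig1: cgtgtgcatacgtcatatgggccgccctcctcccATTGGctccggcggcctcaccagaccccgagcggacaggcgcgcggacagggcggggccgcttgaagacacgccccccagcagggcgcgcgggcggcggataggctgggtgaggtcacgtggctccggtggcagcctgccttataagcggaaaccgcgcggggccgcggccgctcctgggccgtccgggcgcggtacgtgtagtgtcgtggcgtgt
Abca1: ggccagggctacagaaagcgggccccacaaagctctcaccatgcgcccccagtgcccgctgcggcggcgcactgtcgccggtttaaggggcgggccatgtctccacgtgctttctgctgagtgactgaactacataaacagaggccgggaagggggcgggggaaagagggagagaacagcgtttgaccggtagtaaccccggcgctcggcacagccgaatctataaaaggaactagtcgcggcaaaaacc
The windows lie at chr13:119690101-119690350 on the plus strand for Hmgcs1, chr13:8885356-8885605 on the plus strand for Idi1, chr10:76531355-76531604 on the plus strand for Lss, chr5:28071162-28071411 on the plus strand for Insig1 and chr4:53159896-53160145 on the minus strand for Abca1. The sterol response element of Hmgcs1 begins 137 bases before the start, between CCAAT boxes that begin 176 and 45 bases before it. Idi1 has CCAAT boxes 45 and 14 bases before its start, Lss 1 at 62 bases and Insig1 1 at 216 bases, while the Abca1 window has none.

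A promoter entry was matched for 24 of the 29 genes, and motifs were searched on both strands from 250 bases before to 50 bases after the start. CCAAT was found in 21 of the 24, against 41.1% of the 27025 genes with a window. The 3 without one were Abca1, Scap and Acat2. Of the 19 genes with a window that rose from 12 h to 36 h, 17 had a CCAAT box, and so did 4 of the 5 that did not pass the test, so its presence did not separate those that passed from those that did not. TCACNCCAC was found in 1 of 24, Hmgcs1, against 1.44% of all genes. The E-box CACGTG, the site of CLOCK and BMAL1 among other factors, was found in 6 of 24 (Hsd17b7, Sc5d, Dhcr7, Insig1, Scap and Abca1), against 8.09% of all genes, and the Sp1 box GGGCGG in 22 of 24, against 38.2%. The shares over all genes cover every gene with a window, tested here or not, and were not taken over the tested genes alone. These matches describe letters, not bound sites.

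The first comparison asked how the pathway changed from 12 h to 36 h after the shock, called the first day here. Both ends lie at the same phase of a 24 h cycle. The series holds no library from before 12 h, so the level before the shock is not known. From 12 h to 36 h nearly the whole synthetic pathway rose together, between 1.78-fold (Ebp) and 4.29-fold (Idi1) among its called enzymes, and the sensor Insig1 rose 4.46-fold. Of the 29 genes, 23 were higher at 36 h and 0 were lower (1 at an unadjusted p under 0.05) by the edgeR quasi-likelihood test with Benjamini-Hochberg adjustment over all 12687 genes, where 16.0% of all genes were called (9.30% higher and 6.75% lower). That fit held no block. With the replicate number of the library titles as a block, 26 of the 29 were called, Npc2 lower among them, and 3839 of all genes. Without the block the median log2 change was 1.17 for the 29 genes and -0.01 for all genes tested. The 3 libraries of 36 h lay above all 3 of 12 h for 25 of the 29 genes, which held for 14.5% of all genes, and below them for 1 gene, Npc2, which held for 13.7%. In the test that allows a change of any form among the 9 groups, the same number, 23 of 29, passed, against a background of 18.5%.

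**Figure D1:**
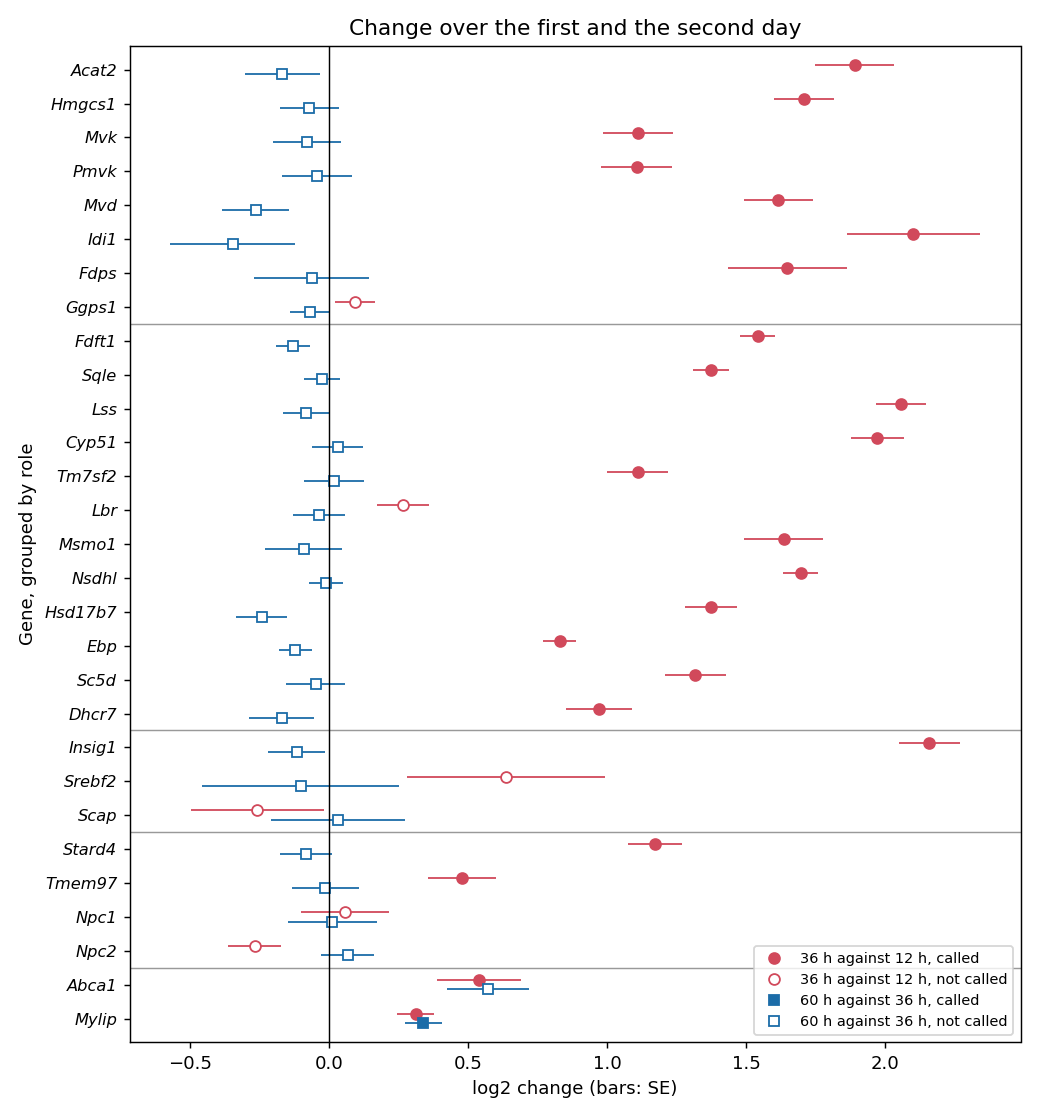
Log2 change of each of the 29 genes from 12 h to 36 h (circles) and from 36 h to 60 h (squares), with SE bars; filled symbols passed the test at adjusted p under 0.05, and lines separate the role groups. The circles of 23 genes are filled and lie between 0.31 and 2.16, whereas of the squares only that of Mylip is filled.

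Among the mevalonate and isoprenoid enzymes, 7 of 8 rose, with a median log2 change of 1.63 over the 8. Hmgcs1, which joins acetoacetyl-CoA with acetyl-CoA to form HMG-CoA, had 798, 832 and 714 CPM at 36 h, against 249, 260.0 and 208 CPM at 12 h. All libraries of 36 h stood above all of 12 h, and the log2 change was 1.71 ± 0.11 (SE; edgeR adjusted p = 7.36e-11). Idi1, the isomerase that makes the reactive isoprenoid unit, had 38.5, 41.5 and 31.5 CPM at 36 h and 9.20, 11.6 and 5.27 CPM at 12 h, a log2 change of 2.10 ± 0.24, with wide spread between libraries at 12 h. Acat2, the cytosolic thiolase that starts the pathway, averaged 104 ± 11.2 CPM at 36 h and 28.2 ± 4.28 CPM at 12 h (SD, n = 3 each; log2 change 1.89). The kinases and decarboxylase that turn mevalonate into isopentenyl diphosphate rose by 1.11 (Mvk), 1.10 (Pmvk) and 1.61 (Mvd) on the log2 scale, and Fdps, which builds farnesyl diphosphate, by 1.65.

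The exception was Ggps1, which makes geranylgeranyl diphosphate for protein prenylation and so leads away from sterols. It had 44.7, 40.7 and 41.1 CPM at 36 h, against 40.1, 38.1 and 40.5 CPM at 12 h, a difference of 0.09 ± 0.07 on the log2 scale that did not pass (edgeR adjusted p = 0.466). Its means stayed between 38.4 CPM at 42 h and 44.4 CPM at 24 h over the whole course.

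Of the sterol enzymes, 11 of 12 rose, with a median log2 change of 1.37. Lss, which closes squalene epoxide into lanosterol, had the largest change of this group, with 148, 153 and 148 CPM at 36 h and 36.3, 36.1 and 35.5 CPM at 12 h (log2 2.06 ± 0.09; edgeR adjusted p = 1.04e-13). The libraries of each time agreed to within a few percent while the times differed 4.16-fold. Cyp51, lanosterol demethylase, had 788, 798 and 714 CPM at 36 h, against 211, 206 and 169 CPM at 12 h. Nsdhl, a dehydrogenase that removes methyl groups from the sterol ring, had 133, 135 and 138 CPM at 36 h and 43.4, 39.2 and 42.6 CPM at 12 h, and its log2 change of 1.69 ± 0.06 had the smallest adjusted p of the 29 genes (edgeR adjusted p = 6.86e-15).

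The committed sterol steps moved with them. Fdft1, squalene synthase, averaged 143 ± 5.81 CPM at 36 h and 49.1 ± 0.539 CPM at 12 h, and Sqle, squalene epoxidase, averaged 281 ± 4.35 CPM at 36 h and 108 ± 1.99 CPM at 12 h (SD, n = 3 each). Msmo1, the sterol methyl oxidase, rose by 1.63 on the log2 scale, Hsd17b7, a ketosteroid reductase, by 1.37, Sc5d, a sterol desaturase, by 1.32, and Dhcr7, which reduces the last precursor to cholesterol, by 0.97. Ebp, the sterol isomerase, rose least among those called, with 202, 202 and 210.3 CPM at 36 h and 114, 118 and 114 CPM at 12 h (0.83 ± 0.06).

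Another reductive step, apart from that of Dhcr7, can be carried out by Tm7sf2 or by Lbr, the lamin B receptor, which also tethers chromatin at the nuclear envelope. Tm7sf2 had 18.9, 18.7 and 19.1 CPM at 36 h, against 9.47, 8.58 and 8.23 CPM at 12 h (log2 1.11 ± 0.11), and its exons share 532 bases with Vps51 on the same strand, so its counts are uncertain. Lbr had 94.3, 99.7 and 85.6 CPM at 36 h, against 79.5, 84.8 and 68.6 CPM at 12 h. The libraries of Lbr did not overlap, but its log2 difference of 0.26 ± 0.09 missed the threshold (edgeR adjusted p = 0.0604), and it passed with the replicate number as a block (0.27 ± 0.06; edgeR adjusted p = 0.000636) and in DESeq2 (adjusted p = 0.0495). A difference between Tm7sf2 and Lbr was not tested.

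Sensing genes split. Insig1, itself a target of SREBP2, had 183, 181 and 168 CPM at 36 h and 42.5, 43.1 and 33.5 CPM at 12 h, the largest log2 change of the 29 genes (2.16 ± 0.11; edgeR adjusted p = 1.41e-12). Srebf2 had 145, 109 and 229 CPM at 36 h, against 98.6, 64.6 and 147 CPM at 12 h, in the order of replicate numbers 1, 2 and 3. The groups overlap, yet the 36 h library was above the 12 h library of its own number by 0.55, 0.75 and 0.63 on the log2 scale. Without a block the difference of 0.64 ± 0.36 did not pass (edgeR adjusted p = 0.269), whereas with the replicate number as a block it did (0.65 ± 0.12; edgeR adjusted p = 1e-04). Scap had 52.9, 44.1 and 75.5 CPM at 36 h and 70.8, 48.8 and 86.9 CPM at 12 h, lower within each number, and passed neither without the block (-0.26 ± 0.24; edgeR adjusted p = 0.556) nor with it (-0.25 ± 0.10; edgeR adjusted p = 0.0592).

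The levels of Srebf2 and Scap followed the replicate number as much as time. In the libraries numbered 2, Srebf2, Scap, Npc1 and Sc5d each had their lowest value at all 9 time points. Lbr had its lowest in those numbered 3 at all 9. The share of all genes with such a pattern was not taken. For Srebf2 the mean level of the numbers spanned 0.90 on the log2 scale, more than for 99% of all genes tested, and for Scap 0.56, more than for 93.6%. The median span was 0.20 for the 29 genes and 0.20 for all genes. What the replicate number stands for is not given in the sources used here, and its part in these levels was not tested further than by the block.

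**Figure D2:**
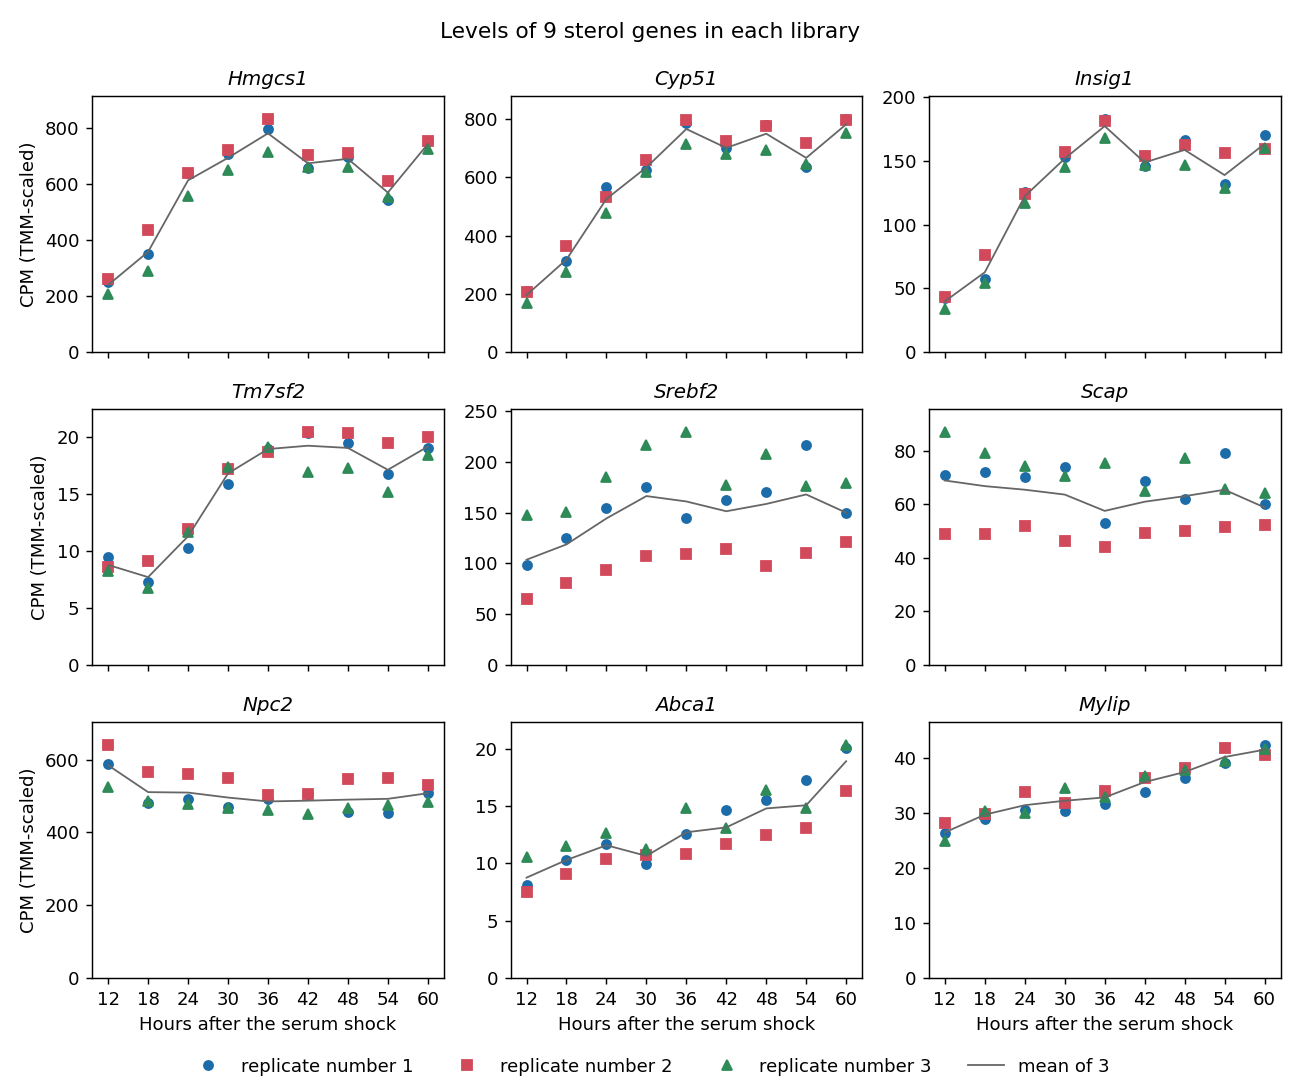
CPM of 9 of the genes in each of the 27 libraries against hours after the serum shock, with 1 symbol per replicate number and a line through the mean of 3. Hmgcs1, Cyp51 and Insig1 climb until 36 h and then stay within a band, Tm7sf2 is lowest at 18 h and highest at 42 h, Abca1 and Mylip are highest at 60 h, and the squares of number 2 lie lowest throughout for Srebf2 and Scap.

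Of the transport genes, 2 of 4 rose. Stard4, a soluble carrier that moves cholesterol between membranes, had 62.0, 60.8 and 60.8 CPM at 36 h and 28.0, 29.3 and 24.3 CPM at 12 h (log2 1.17 ± 0.10; edgeR adjusted p = 4.94e-09). Tmem97, an endoplasmic reticulum protein that binds NPC1 and limits its level, had 43.0, 50.5 and 40.8 CPM at 36 h, against 32.2, 35.1 and 29.3 CPM at 12 h. Its log2 change of 0.48 ± 0.12 (edgeR adjusted p = 0.00816) lost its call without the second library of 36 h (edgeR adjusted p = 0.0593).

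Npc1 and Npc2, which hand cholesterol out of the lysosome, were not called. Npc1 averaged 55.2 ± 6.02 CPM at 36 h and 53.1 ± 8.48 CPM at 12 h (SD, n = 3 each; log2 0.06 ± 0.16). Npc2 had 493, 502 and 460.2 CPM at 36 h, against 588, 639 and 526 CPM at 12 h, the only one of the 29 genes whose 36 h libraries all lay below those of 12 h. Its log2 difference of -0.27 ± 0.10 missed the threshold (edgeR adjusted p = 0.0584) and passed it with the replicate number as a block (-0.27 ± 0.05; edgeR adjusted p = 0.000233) and in DESeq2 (adjusted p = 0.047).

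Both LXR targets rose on the first day. Abca1, which exports cholesterol to apolipoprotein A-I, had 12.5, 10.8 and 14.8 CPM at 36 h and 8.15, 7.54 and 10.6 CPM at 12 h (log2 0.54 ± 0.15; edgeR adjusted p = 0.0156). The groups barely separate, and the call was lost without the first (adjusted p = 0.0803) or second library of 12 h (0.0985) or the third of 36 h (0.123). Mylip had 31.6, 34.0 and 32.8 CPM at 36 h and 26.3, 28.1 and 24.9 CPM at 12 h, a small change with little spread (log2 0.31 ± 0.07; edgeR adjusted p = 0.00164). Without all 9 libraries of a replicate number, the call of Mylip was lost for number 3 (adjusted p = 0.0779), that of Abca1 for numbers 1 (0.226) and 3 (0.0723), and that of Tmem97 for number 1 (0.168).

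The second day was compared in the same way, with 60 h set against 36 h. On this day edgeR without a block called only 1 of the 29 genes, Mylip, and 0 were lower. At an unadjusted p under 0.05, 2 were higher and 3 lower. Of all genes 0.859% were called (0.497% higher and 0.363% lower). With the replicate number as a block, not taken as a pairing here, 4 of the 29 were called, and 395 of all genes. In that fit Abca1 and Mylip were higher, and Mvd (edgeR adjusted p = 0.0422) and Hsd17b7 (adjusted p = 0.0399) lower. For the 18 synthesis enzymes that rose on the first day the median log2 change was -0.08, with a range of -0.35 (Idi1) to 0.03 (Cyp51). Their first-day median of 1.58 is a description, since they were chosen by that rise, and the 36 h libraries serve in both days. Cyp51 had 801, 796 and 751 CPM at 60 h, against 788, 798 and 714 CPM at 36 h, and Insig1 170.0, 159 and 160.4 CPM at 60 h, against 183, 181 and 168 CPM at 36 h. Libraries of 60 h lay below all those of 36 h for 5 genes (Mvd, Fdft1, Lss, Hsd17b7 and Ebp), which held for 6.46% of all genes, but the adjusted p of none of the 5 was under 0.05 in the fit without a block.

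Of the LXR targets, Mylip rose again. It had 42.3, 40.5 and 41.6 CPM at 60 h, against 31.6, 34.0 and 32.8 CPM at 36 h (log2 0.34 ± 0.07; edgeR adjusted p = 0.00943). That call was lost without the first library of 36 h (adjusted p = 0.0594) or of 60 h (0.0596), and without all libraries numbered 1 (0.477), 2 (0.104) or 3 (0.253), while the direction was upward in all 3 replicate numbers. Abca1 had 20.1, 16.4 and 20.3 CPM at 60 h, against 12.5, 10.8 and 14.8 CPM at 36 h, with no overlap. Yet its log2 difference of 0.57 ± 0.15 did not pass without a block (edgeR adjusted p = 0.0734). It passed in DESeq2 (adjusted p = 0.0181) and with the replicate number as a block (edgeR adjusted p = 0.000435). The libraries of both genes at 60 h lay above those at 36 h, which held for 6.43% of all genes.

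The difference between the days was then tested itself, as the log2 change of the first day minus that of the second. It was positive and passed for 20 of the 29 genes, against 6.76% of all genes called (4.38% positive and 2.38% negative). These 20 were the 18 synthesis enzymes, Insig1 and Stard4. The difference was 2.28 ± 0.17 for Insig1, 2.14 ± 0.14 for Lss and 2.45 ± 0.38 for Idi1 (SE; edgeR adjusted p = 7.33e-09, adjusted p = 7.41e-10 and adjusted p = 0.000171). For Abca1 it was -0.03 ± 0.26 and for Mylip -0.03 ± 0.11, neither of which passed (edgeR adjusted p = 0.983 and adjusted p = 0.965), so that the change of these 2 genes was not shown to differ between the days. Set against 12 h, 60 h had 23 of the 29 genes higher and 0 lower, against 16.1% of all genes called (9.50% higher and 6.56% lower). The 12 h libraries serve in both that comparison and the one of the first day.

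The courses of the synthesis enzymes and of the LXR targets were then set side by side. As the median of each group's log2 CPM after each gene was centred on its mean over the course, the 18 synthesis enzymes stood at -1.08 ± 0.05 (12 h), 0.46 ± 0.06 (36 h) and 0.35 ± 0.02 (60 h; SD, n = 3 each). Abca1 and Mylip stood at -0.44 ± 0.09 (12 h), -0.02 ± 0.10 (36 h) and 0.44 ± 0.10 (60 h). The difference, synthesis minus efflux, began at -0.64 ± 0.13 in the 12 h libraries and -0.46 ± 0.23 in those of 18 h. It was 0.15 ± 0.10 in the 24 h libraries, 0.42 ± 0.11 in the 30 h libraries and 0.48 ± 0.16 in the 36 h libraries. On the second day it was 0.17 ± 0.05 (42 h), 0.15 ± 0.13 (48 h), -0.12 ± 0.14 (54 h) and -0.09 ± 0.08 (60 h). It was lowest at 12 h and highest at 36 h. The zero of this scale is set by the centring of each gene and marks no balance of the groups. These are descriptions without a test, and the LXR group has only 2 genes.

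**Figure D3:**
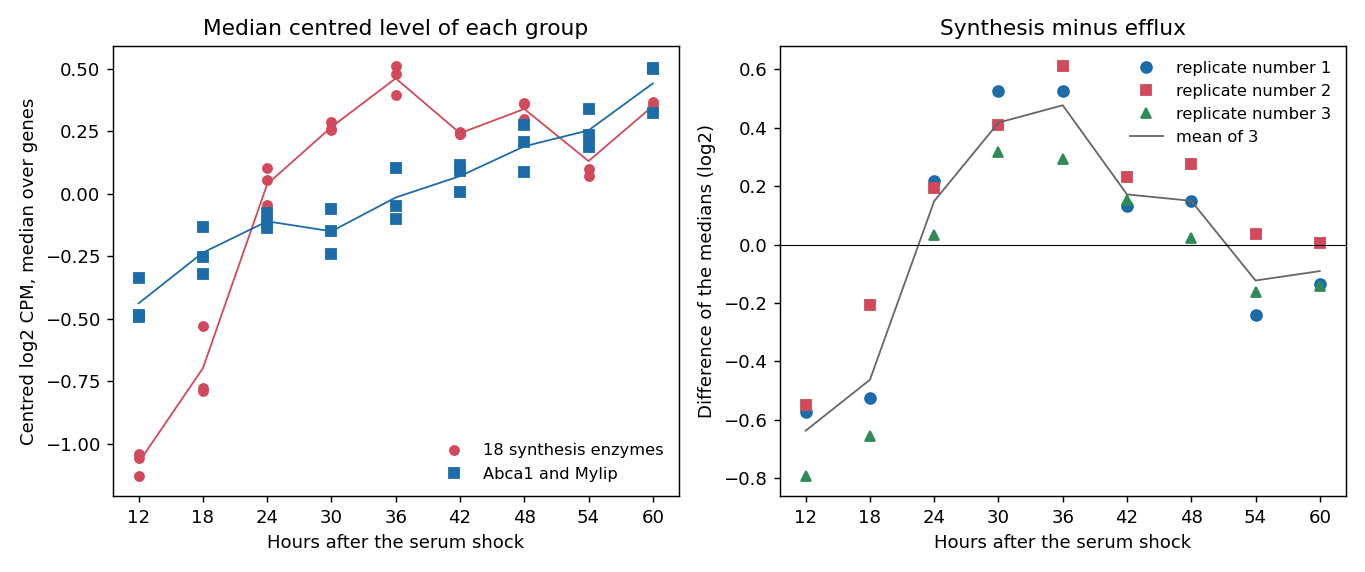
Left, the median centred log2 CPM of the 18 synthesis enzymes (circles) and of Abca1 and Mylip (squares) in each library against hours after the shock, with lines through the means of 3; right, the difference of the 2 medians by replicate number. Synthesis rises to 0.46 at 36 h and levels off, the LXR targets reach 0.44 only at 60 h, and the mean difference is lowest at 12 h and highest at 36 h.

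Successive time points were compared to place the rise. From 12 h to 18 h, 11 of the 29 genes rose, against 5.08% of all genes called (2.79% higher and 2.29% lower), and from 18 h to 24 h 17 rose, against 1.86% (0.977% higher and 0.883% lower). From 24 h to 30 h only Tm7sf2 and Nsdhl rose, against 0.733% (0.623% higher and 0.110% lower). In the 5 later steps 0 of 29 passed the edgeR test, against 0.189%, 0.575%, 0.134%, 0.221% and 0.0709% of all genes, in order of time. At an unadjusted p under 0.05, 7 were higher at 36 h than at 30 h, 8 lower at 42 h than at 36 h, 0 differed between 48 h and 42 h, 7 were lower at 54 h than at 48 h and 11 higher at 60 h than at 54 h. The share of all genes at that unadjusted threshold was not taken. These counts, like the others at it, therefore have no background beside them. Over the 8 steps 30 calls were made, and 11 without the 9 libraries numbered 1. DESeq2 made 38, and edgeR with the replicate number as a block 66. The 18 h libraries serve in both of the first steps. Lss rose by 0.49 ± 0.09 on the log2 scale in the first step and by 1.08 ± 0.09 in the second, and Cyp51 by 0.70 ± 0.09 and 0.73 ± 0.09 (SE).

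Expressed as a share of each gene's difference between 12 h and 36 h in mean log2 CPM, the 23 genes had covered a median of 27.9% by 18 h, 76.1% by 24 h and 87.6% by 30 h. Early and late steps of the pathway had similar shares. The 7 mevalonate enzymes were at 27%, 76.1% and 87.8% at these times and the 11 sterol enzymes at 23.9%, 75.9% and 86.9%. The centred median of the sterol enzymes minus that of the mevalonate enzymes ran from -0.07 ± 0.09 at 36 h to 0.15 ± 0.21 at 12 h. It was never larger than its own SD over the 3 libraries of a time point, but that SD also holds differences between replicate numbers. Within each number it was lower at 36 h than at 12 h. The values were -0.04 and 0.12 for number 1, -0.16 and -0.04 for number 2, and 0.01 and 0.39 for number 3. Its zero is set by the centring, so its size beside the SD does not show that the 2 groups moved alike.

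A few genes lagged. Tm7sf2 had 7.25, 9.07 and 6.75 CPM in the 18 h libraries, 10.3, 11.9 and 11.6 in those of 24 h and 15.8, 17.1 and 17.4 in those of 30 h, so that the shares of its change were -17.6%, 32.6% and 84.3%. Tmem97 was lower at 18 h than at 12 h in all 3 replicate numbers and had covered 18.5% at 24 h. Pmvk was at 52.0% and Ebp at 55.6% at 24 h, against 65.4% or more for the 15 other called synthesis enzymes apart from Tm7sf2. Stard4 was ahead of most, at 40.2% at 18 h and 83.1% at 24 h. These shares carry no test.

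**Figure D4:**
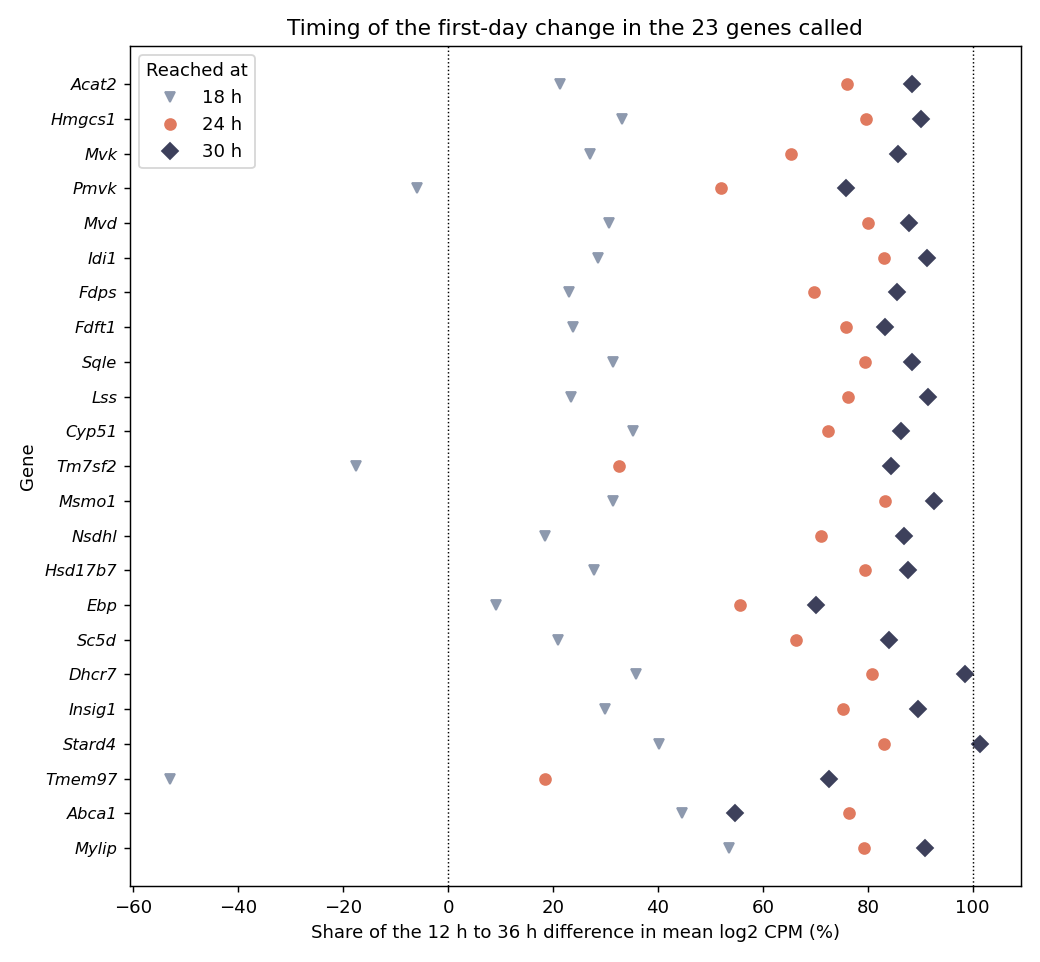
Share of each gene's 12 h to 36 h difference in mean log2 CPM that was reached at 18 h (triangles), 24 h (circles) and 30 h (diamonds), for the 23 genes called in that comparison. Most circles lie between 65.4 and 83.3%, with Tm7sf2 and Tmem97 far to the left.

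After 36 h the enzymes stayed in a band. Of the 23 called genes, 16 had their highest mean at 36 h and 3 at 60 h (Cyp51, Abca1 and Mylip), and 20 had their lowest at 12 h. Since these genes were called for being higher at 36 h than at 12 h, such extremes were favoured by the choice. These counts are descriptions, with no share over all genes taken. The centred median of the 18 synthesis enzymes was 0.46, 0.24, 0.34, 0.13 and 0.35 in the libraries of 36, 42, 48, 54 and 60 h, so that it dipped at every other collection. Hmgcs1 had 698, 712 and 661 CPM in the 48 h libraries, 543, 613 and 553 in those of 54 h and 752, 753 and 725 in those of 60 h, and the 54 h libraries lay below those of 48 h and 60 h. A contrast that alternates in sign between successive collections was taken over all 9 time points, with a smooth curve in time taken out. It therefore also covers the rise before 36 h. The contrast was positive and passed for 8 genes (Acat2, Hmgcs1, Fdft1, Sqle, Lss, Nsdhl, Hsd17b7 and Insig1), against 1.65% of all genes called (0.709% positive and 0.938% negative). It was 0.22 ± 0.03 for Nsdhl and 0.23 ± 0.03 for Fdft1 on the log2 scale (SE; edgeR adjusted p = 0.000123 and adjusted p = 9.34e-05). Without the 9 libraries numbered 1, 0 genes passed it, without those numbered 2, 7 did, and without those numbered 3, 3 did.

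A 24 h rhythm, the series' own question, was called for 0 of the 29 genes by the edgeR quasi-likelihood test, and for 7 of all genes (0.0552%). DESeq2 and limma-voom also called 0 of 29, and 0 had an unadjusted p under 0.05. The fit held only a straight line beside the rhythm, while most called genes rose until 36 h and then levelled off. It may therefore miss a rhythm in these genes. With a quadratic term added, 0 of 29 were again called. A linear trend over the course, fitted beside the rhythm, rose for 24 of 29, against 19.4% of all genes called (10.7% rising and 8.72% falling). It included Lbr (0.22 ± 0.08 per 48 h; edgeR adjusted p = 0.0337), which had not passed in the comparison of 36 h with 12 h and whose trend lost its call when any 1 of 9 of the libraries was left out (adjusted p = 0.0551 to 0.128). Fitted to the libraries of 36 h to 60 h alone, a comparison added after seeing the data, the trend rose for Mylip alone (0.34 ± 0.05 per 24 h; edgeR adjusted p = 0.00509), against 0.636% of all genes called, and for Abca1 was 0.54 ± 0.13 per 24 h (adjusted p = 0.084).

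**Figure D5:**
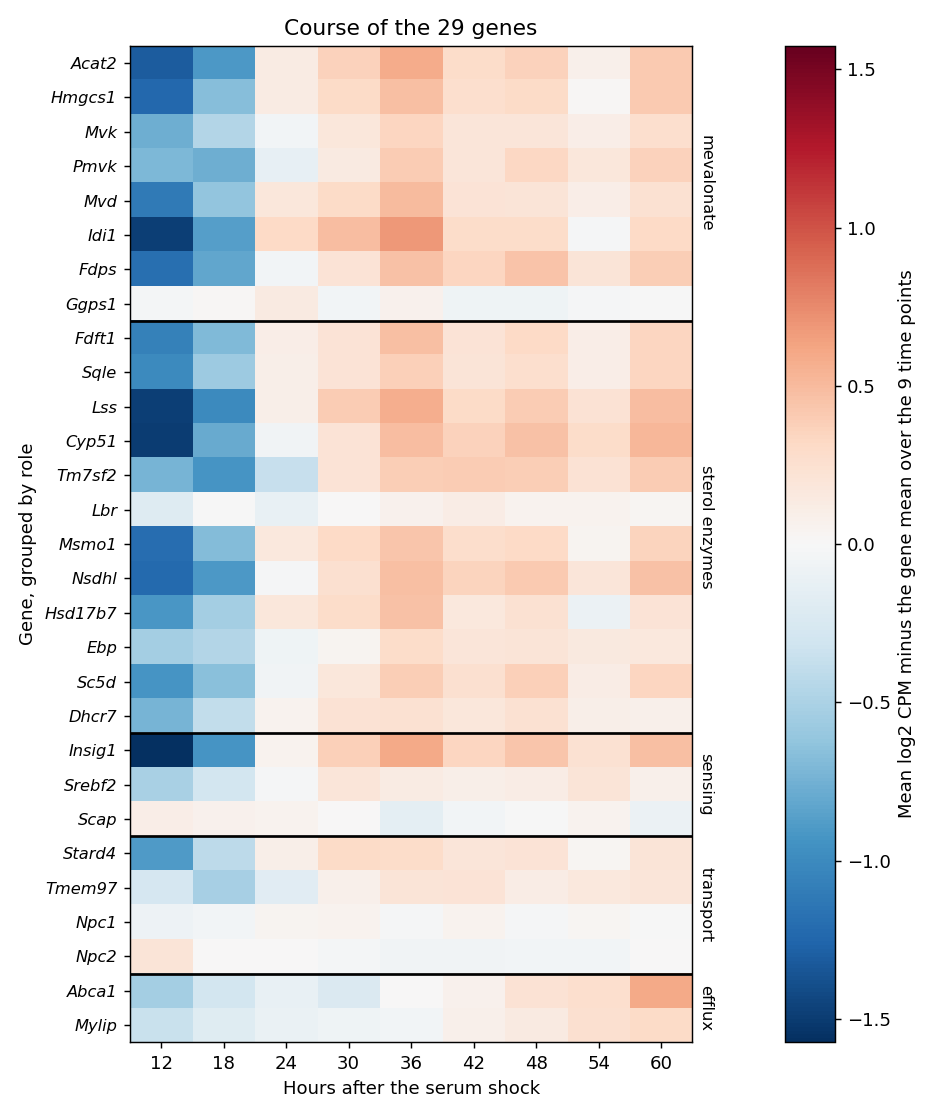
Mean log2 CPM of each of the 29 genes at each time point after subtraction of the gene's mean over the 9 time points, with black lines between the role groups; red is above the gene's own mean and blue below it. The synthesis enzymes that were called, Insig1 and Stard4 are blue at 12 and 18 h and red at 36 h, Ggps1, Lbr, Scap, Npc1 and Npc2 stay pale, and Abca1 and Mylip are reddest at 60 h.

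Levels can be set against each other only per length of mRNA. At 36 h the highest were Hmgcs1, with 226 ± 17.5 CPM per kb of its principal mRNA, Cyp51 with 195 ± 11.6 and Npc2 with 147 ± 6.67 (SD, n = 3). The libraries of these 3 genes did not overlap. At 12 h Npc2 led, with 177 ± 17.2 CPM per kb, above Hmgcs1 with 69.0 ± 7.83 and Cyp51 with 49.7 ± 5.82. The kinases of the mevalonate branch were lower than the synthase that feeds it, at 53.0 ± 4.96 for Pmvk and 30.6 ± 3.17 for Mvk at 36 h. Idi1 was at 12.3 ± 1.70 and Stard4 at 12.0 ± 0.141 CPM per kb, and Abca1, at 1.24 ± 0.197, was the lowest of the 29 genes.

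Other genes of the pathway were taken from lists of related genes by role, chosen with earlier results of these data known. Among the lipoprotein receptors Vldlr, Lrp1 and Scarb1, Vldlr, the very low density lipoprotein receptor, was lower at 36 h, with a mean of 5.93 ± 0.922 CPM at 36 h and 15.2 ± 0.590 CPM at 12 h (SD, n = 3 each; log2 -1.35 ± 0.14; edgeR adjusted p = 1.49e-07). It had been lower still at 30 h, with 3.70, 3.74 and 3.00 CPM, and had 9.54, 8.06 and 7.57 CPM at 60 h. From 12 h to 36 h the log2 differences of Lrp1 (-0.11 ± 0.21) and Scarb1 (0.21 ± 0.16) did not pass. Of the 8 other genes of SREBP processing Srebf1 rose by 0.84 and Erlin2, a sterol-responsive scaffold of the endoplasmic reticulum, changed by -0.35. Of 6 further LXR genes Abcg1, a partner of Abca1 in export, rose by 0.59 and Smpdl3a by 0.46. By the edgeR test 0 of 9 genes of the isoprenoid branches and 0 of 5 of esterification and oxysterols passed (0 and 1 at an unadjusted p under 0.05), beside 16.0% of all genes. From 36 h to 60 h 0 genes of these 4 groups passed by the same test, beside 0.859% of all genes, so that counts of 0 in groups of this size are near the background. At an unadjusted p under 0.05 on that day stood 0 of SREBP processing, 1 of the LXR genes, 0 of the isoprenoid branches and 1 of esterification and oxysterols.

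The genes outside both lists whose log2 CPM was most like the median course of the 18 synthesis enzymes, over the 27 libraries and among genes with a mean of at least 1 CPM, began with Elovl6 (Pearson r = 0.986), a fatty acid elongase, Acly (0.982), which makes cytosolic acetyl-CoA from citrate, and Aacs (0.980), which activates acetoacetate. Next came Lipg (0.966), a lipase, and Pcyt2 (0.963), of phosphatidylethanolamine synthesis. The other 5 of the 10 genes most alike were not lipid enzymes. They were Olfml3 (0.963), Cilp (0.959) and Srpx2 (0.957), which encode secreted proteins, Fhod3 (0.958), a formin, and Colec12 (0.953), a scavenger receptor. Elovl6 averaged 69.1 ± 3.23 CPM at 36 h and 25.2 ± 0.60 CPM at 12 h (SD, n = 3 each). Among the pathway genes Insig1 had r = 0.996, Srebf2 0.41 and Scap -0.28. The libraries of a time point share that time, so these values describe the course and are not tests.

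The label of the cells was checked against markers. All 7 myotube markers were present, with 3176, 3270.3 and 3638 CPM of Myh3 at 36 h and 2649.8, 2707 and 2854 CPM at 12 h, and their summed level was 11859 to 13787 CPM at 36 h and 12539 to 12957 CPM at 12 h. Myoblast and dividing cells were present as well. The sum of the 2 myoblast markers, Pax7 and Myf5, was 27.9 to 33.5 CPM at 36 h and 30.0 to 34.8 CPM at 12 h, and that of 4 proliferation markers was 690.9 to 786 CPM at 36 h and 575 to 647 CPM at 12 h, with Mki67 (0.44) and Ccnb1 (0.75) higher at 36 h on the log2 scale. Smooth muscle genes rose as well, but mostly after 24 h. Acta2 averaged 2852 CPM at 12 h, 2983 CPM at 24 h and 4665 CPM at 36 h. Cnn1 averaged 16.9, 25.6 and 59.3 CPM at these times, and both had their highest mean at 42 h. Of 3 markers Acta2 (0.71) and Cnn1 (1.81) rose, for a sum of 4213 to 5414 CPM at 36 h and 2580 to 3048 CPM at 12 h, while Myh11 stayed under 1 CPM. Myog was lower at 36 h (-0.45). Whether the changes of these markers bear on the rise of the sterol genes was not tested. All markers of adipocytes (4), hepatocytes (2), macrophages (3) and endothelium (2) were under 1 CPM in every library of 12, 36 and 60 h.

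Counts of some of the genes may include reads of others. Acat2 has a near copy, Acat3, and Idi1 has Idi2, and exons of Fdft1, Cyp51, Ggps1 and Npc1 overlap genes on the opposite strand (Ctsb over 774 bases, Akap9 over 166, Arid4b over 257 and Rmc1 over 319). The strand option of the counting is not given in the sources used here. On mm10 with GENCODE M21, Hmgcs1 (ENSMUSG00000093930) lies on chromosome 13 from 119690379 to 119708260, Lss (ENSMUSG00000033105) on chromosome 10 from 76531588 to 76557138, Insig1 (ENSMUSG00000045294) on chromosome 5 from 28071363 to 28078662, Srebf2 (ENSMUSG00000022463) on chromosome 15 from 82147181 to 82205379, Abca1 (ENSMUSG00000015243) on chromosome 4 from 53030787 to 53159895 and Mylip (ENSMUSG00000038175) on chromosome 13 from 45389742 to 45412022.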

How the data were processed

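The values are counts, deposited as whole reads per gene and without normalization, of 20446 Ensembl genes and 27 libraries. Trimming was by Trim Galore 0.4.0 with cutadapt 1.9.1 and counting by featureCounts on mm10, per the submitters' processing notes. No source used here names the aligner, the annotation release or the strand option. GENCODE M21 on mm10 named 20318 genes. Promoters came from RefSeq on GRCm38.p6.

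Groups and replicate numbers were read from the titles. Genes passing filterByExpr (minimum count 10) numbered 12687, which left 7759 untested. TMM factors ran from 0.979 to 1.03, and log2 CPM used a prior count of 2. Tests were edgeR quasi-likelihood F tests over all 27 libraries, with Benjamini-Hochberg adjustment across the 12687 genes and a threshold of 0.05. The biological coefficient of variation was 11.8%. Tested on simulated counts for 12609 genes, the comparison of 36 h with 12 h recovered 28%, 48%, 80% and 92% of 25 genes changed 1.3, 1.5, 2 and 3-fold and called 4 unchanged genes.

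Same-numbered libraries deviated together between 36 h and 12 h (correlations of 0.11, 0.49 and 0.57 over genes, each above 0.1), so for that comparison the numbers were taken as pairs and the blocked fit is given where it changed a call. The main counts, SEs and p-values are still those of the fit without a block. The labels do not say what a number stands for. For 60 h with 36 h (-0.06, 0.31 and 0.29) the correlation of number 1 was below 0.1, so the numbers were not taken as pairs there, although 91 of 108 same-numbered pairs over all time points were above 0.1 (medians of 0.11, 0.53 and 0.37, against -0.19 for different numbers).

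All 29 genes were named, and some other genes of the pathway are not reported here. The genes, the other lists, the role groups and the tests were chosen with earlier results of these data known. Alternatives were DESeq2, limma-voom, median of ratios scaling, other filters, the replicate block, each library or replicate number left out, adjusted p under 0.01, and other terms and time points. The tools were edgeR 4.0.16, DESeq2 1.42.0 and limma 3.58.1 in R 4.3.3, with figures from matplotlib 3.10.9 in Python 3.11.15.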

Additional observations from a re-analysis of the deposited data

Results flagged for a closer look

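For 20 of the 29 genes the change of the first day differed from that of the second by a test of the difference itself (edgeR, adjusted over all genes). The difference in log2 change, first day minus second, was 2.06 for Acat2, 1.78 for Hmgcs1, 1.19 for Mvk, 1.15 for Pmvk, 1.88 for Mvd, 2.45 for Idi1 and 1.71 for Fdps among the mevalonate enzymes. Among the sterol enzymes it was 1.67 for Fdft1, 1.40 for Sqle, 2.14 for Lss, 1.94 for Cyp51, 1.09 for Tm7sf2, 1.73 for Msmo1, 1.71 for Nsdhl, 1.62 for Hsd17b7, 0.95 for Ebp, 1.37 for Sc5d and 1.14 for Dhcr7. For Insig1 it was 2.28 and for Stard4 1.26. The 36 h libraries serve in both days, and the level at 60 h was 3.93 times that at 12 h for Lss and 4 times for Cyp51.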

How the results depend on the processing

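The direction of each of the 29 genes stayed the same from 12 h to 36 h wherever it was called, and counts of 23 (any change), 23 (36 h with 12 h), 23 (60 h with 12 h) and 20 (difference between the days) stayed within 1.5 times under every alternative run. With each library, or all 9 of a replicate number, left out, they ranged over 19 to 23, 21 to 25, 22 to 23 and 17 to 20. The count from 36 h to 60 h, 1, was 2 with DESeq2 (Abca1 added) and 0 to 1 with libraries left out. The alternation, 8 genes, gave 5 at adjusted p under 0.01, 6 in 36 h to 60 h alone and 0 to 10 with libraries left out, the 0 without number 1. Called steps between successive time points, 30 in all, were 38 with DESeq2 and ranged over 11 to 31 with libraries left out, the 11 without number 1. The rhythm called 0 throughout. The rising trend, 24 genes, ranged over 19 to 24, and was 9 without the 12 h libraries. The first-day median of synthesis minus that of efflux, 1.15, ranged over 1.04 to 1.20, and the 24 h share of 76.1% over 72.6% to 76.9%.

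The replicate block raised the count of 36 h with 12 h to 26, with Srebf2 and Lbr higher and Npc2 lower. That of 60 h with 36 h became 4, with Abca1 (0.57) and Mylip higher, and Mvd (-0.27) and Hsd17b7 (-0.24) lower. The other counts were 15 (alternation), 66 (steps), 26 (trend), 26 (any change), 26 (60 h with 12 h) and 24 (the days). The block raised the counts over all 12687 genes as well. These were 3839 (36 h with 12 h, 2036 without the block), 395 (60 h with 36 h, 109 without) and 850 (alternation, 209 without). For the trend, any change, 60 h with 12 h and the days they were 3894, 5158, 3782 and 1993, against 2466, 2345, 2037 and 858. No count over all genes was taken for the steps.

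Fitted to 36 h to 60 h alone, the trend called 1 gene, and 22 genes that rose over the whole course had slopes below 0, none called. Per 48 h these were -0.42 (Acat2), -0.28 (Hmgcs1), -0.19 (Mvk), -0.084 (Pmvk), -0.51 (Mvd), -0.79 (Idi1), -0.19 (Fdps), -0.29 (Fdft1), -0.11 (Sqle), -0.19 (Lss), -0.0041 (Cyp51), -0.10 (Tm7sf2), -0.11 (Lbr), -0.32 (Msmo1), -0.13 (Nsdhl), -0.58 (Hsd17b7), -0.22 (Ebp), -0.18 (Sc5d), -0.34 (Dhcr7), -0.27 (Insig1), -0.25 (Stard4) and -0.070 (Tmem97). That fit holds fewer samples, those after the rise.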
